A study of Canis lupus familiaris with 36 samples.

Results

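The BCL2 family of cell death regulators was described across the subtypes of canine lymphoma. Its 10 named members were BCL2, BCL2A1, BCL2L1, MCL1, BCL2L11, BAX, BAK1, BID, PMAIP1 and BBC3, and their probe sets were taken by gene symbol from the platform annotation, with the brightest probe set standing for each gene. Of these 10 genes, 8 were paired with a probe set here, 14 probe sets in all, among 15115 genes of the whole table. PMAIP1 and BBC3, which code for NOXA and PUMA, were not analysed here. Of the 8 genes, 7 passed the filter on dim genes, as did 7500 of all genes, and BCL2L11 did not.

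The family sets whether a cell under stress opens the outer membrane of its mitochondria and dies. Its guardians, among them BCL2, BCL2A1, BCL2L1 (BCL-XL) and MCL1, hold the pore-forming effectors BAX and BAK1 in check, and the BH3-only proteins, among them BID, BIM (BCL2L11), NOXA and PUMA, sense the stress and either occupy the guardians or activate the effectors. In lymphoid cells the guardians are used at different stages of maturation, and BCL2 itself was found at a translocation of human follicular lymphoma.

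RNA from lymphoma tissue of 35 dogs was hybridised to 36 Affymetrix arrays of 43035 probe sets, and 1 DLBCL case carried 2 arrays, which were averaged. Each tumour was dissociated mechanically and filtered, so a sample held whatever cells passed the filter, and every dog gave a single tumour. No treatment, engineered allele or healthy lymph node was among the labels. The arrays were alike in brightness, with 32.2% to 35.5% of probe sets at or above an intensity of 16, which is 4 on the log2 scale and served as the minimum for a measured level. The number of dogs limits the precision of every comparison.

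The phenotype label B covered 17 dogs and T 17 dogs. Among the B dogs were 2 labelled BL, aged 2 and 5 at diagnosis and of high grade, 10 with diffuse large B-cell lymphoma (DLBCL), aged 4 to 14 and of high grade, and 5 with marginal zone lymphoma (MZL), aged 4 to 10 and of low grade. Among the T dogs were 4 labelled LBT, aged 3 to 10 and of high grade, 4 with peripheral T-cell lymphoma (PTCL), aged 6 to 14, of which 3 were of high and 1 of intermediate grade, and 9 with T-zone lymphoma (TZL), aged 7 to 11 and of low grade. The labels BL and LBT are used as given. A further dog labelled NBNT, for neither T nor B, was 8 years old and of low grade and entered no comparison. Golden Retrievers made up 8 of the 9 TZL dogs and 1 of the 4 PTCL dogs, and low grade and subtype cannot be told apart.

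With 1 dog standing apart in its T cell sum, the marker sums followed the labelled lineages. The summed intensity of 7 B cell genes was 3715 to 7251 in B dogs and 42.0 to 3551 in T dogs, although PAX5 among them lay below the minimum in every dog. In B against T limma called all 6 tested B cell genes higher, beside 46.5% of all genes called. CD79A among them still averaged 7.35 in TZL dogs, with 0 of 9 under the minimum, beside 7.75 in DLBCL and 6.56 in BL dogs. The summed intensity of 8 T cell genes was 1718 to 8203 in B dogs and 7337 to 33180 in T dogs. In B dogs CD3D, CD3G and CD2 were above the minimum in all 17, while CD5 was under it in 7, TRAT1 in 8 and CD28 in 16 of them. PTCL replicate 4, the intermediate-grade dog, had the T cell sum of 7337, inside the range of the B dogs and apart from the next T dog at 17537, and the highest B cell sum of the T dogs, 3551. Where a member's call changes without this dog, both values are given. A set of 6 arrays stood apart by their actin 3' control, whose log2 intensity was 14.0 to 14.4 in the set and 10.8 to 12.5 elsewhere. It held 2 DLBCL dogs (replicates 4 and 9), 1 PTCL dog (replicate 3) and 3 TZL dogs (replicates 1, 2 and 7). Within subtypes, limma called 0 of 7 members between the set and the other arrays, with 3 at an unadjusted p under 0.05, against 22.4% of all genes, with BCL2L1 0.74 higher in the set (SE 0.28, adjusted p = 0.0544) and BAK1 at -1.03 (SE 0.41, adjusted p = 0.0683). Where a member's call changes without the set, both values are given.

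**Figure D1:**
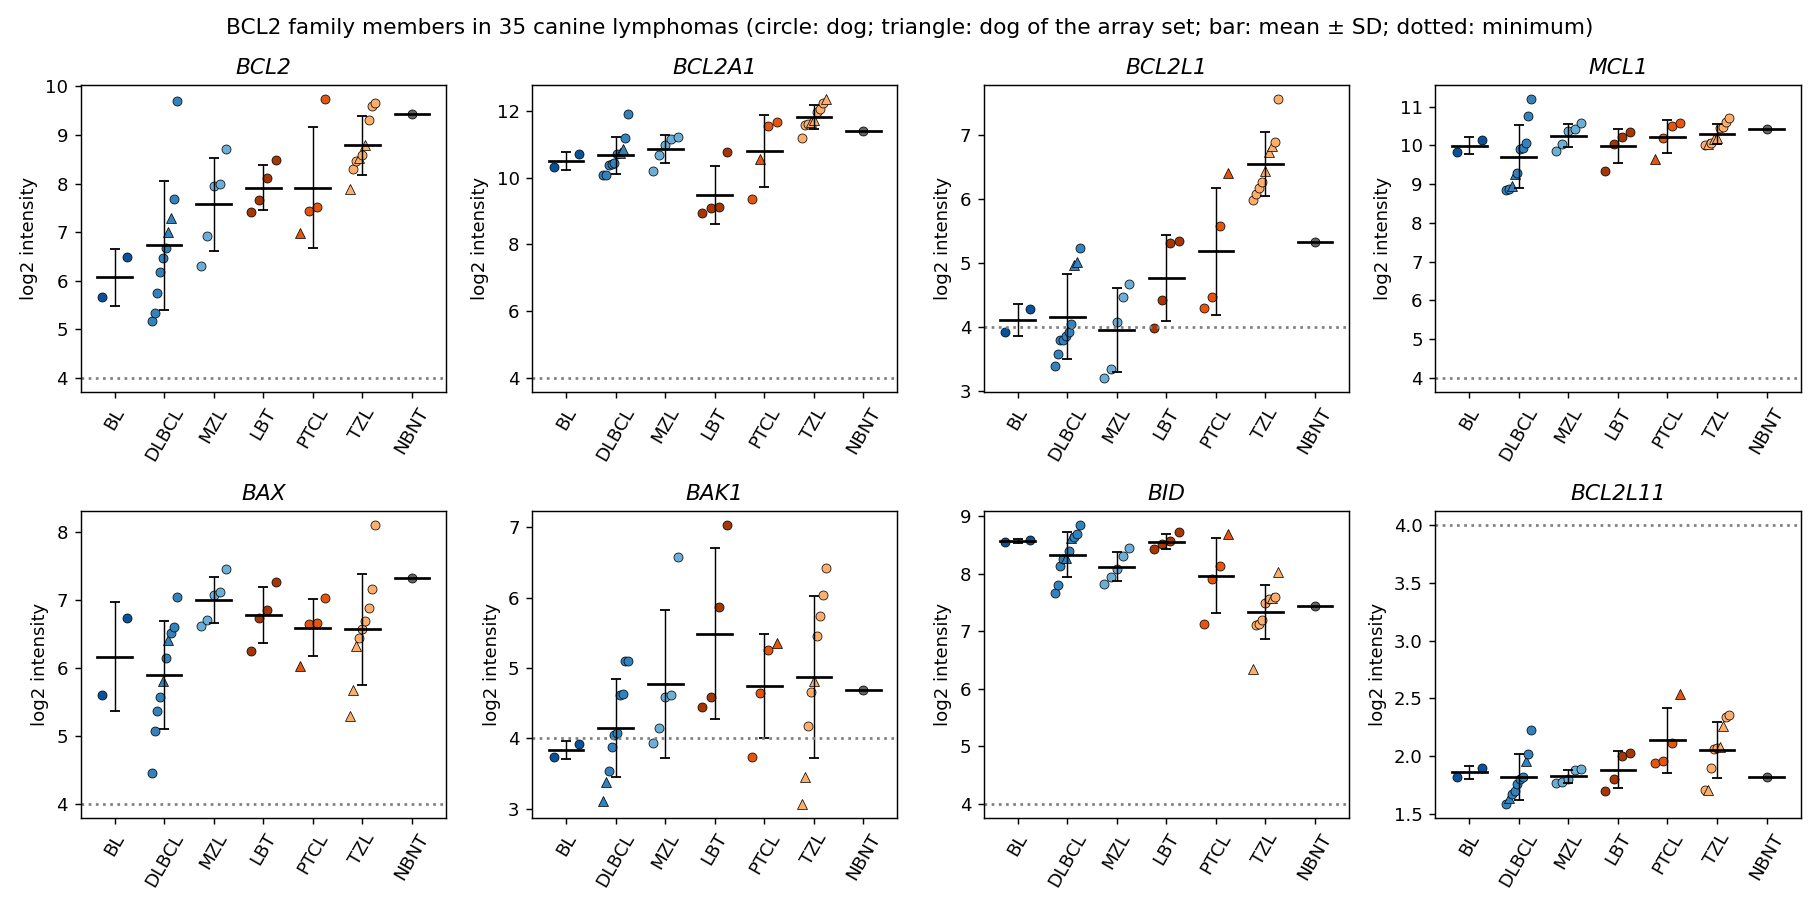
Log2 intensity of the 8 family members with a probe set (vertical axes) in each dog, by subtype label (horizontal axes). Points are dogs, triangles are dogs of the set of 6 arrays with high actin 3' control, bars are means with SD, and the dotted line is the minimum of 4. BCL2L1 lay at 5.98 or more in every TZL dog and at 5.24 or less in every B dog, and BCL2L11 lay below the minimum throughout.

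The guardian BCL2L1 set TZL apart. In the B dogs its log2 intensity was 4.28 and 3.93 for BL, 3.39 at the lowest, 3.89 at the median and 5.24 at the highest for DLBCL, and 3.34, 4.46, 4.67, 3.20 and 4.08 for MZL. LBT dogs had 4.42, 5.33, 3.98 and 5.31, and PTCL dogs 4.46, 4.29, 6.40 and 5.57. In the 9 TZL dogs it was 5.98 at the lowest, 6.44 at the median and 7.56 at the highest, and the NBNT dog was at 5.32. Every TZL dog therefore lay above every BL, DLBCL, MZL and LBT dog, and TZL overlapped with PTCL only, through PTCL replicate 3, which belongs to the set of 6 arrays. How many of all genes separate these groups as fully was not counted, here or for BCL2, BCL2A1 and BID below. Whether such separation is unusual therefore cannot be said. In 9 of 17 B dogs and 1 of 17 T dogs the value was under the minimum.

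BCL2L1 was lower in each subtype set against TZL. The log2 difference was -2.59 for MZL minus TZL (SE 0.36, limma adjusted p = 3.62e-06), -1.78 for LBT minus TZL (SE 0.39, adjusted p = 0.000744) and -1.36 for PTCL minus TZL (SE 0.39, adjusted p = 0.0161). These comparisons share the 9 TZL dogs. With values under the minimum set to 4, the MZL difference was -2.30, a 4.93-fold lower level. The PTCL difference rests on few dogs, since it no longer passed without PTCL replicate 1 (-1.12, adjusted p = 0.078) or without PTCL replicate 2 (-1.07, adjusted p = 0.118), and without the set of 6 arrays it was -1.71 (adjusted p = 0.0123). Without PTCL replicate 4 it was -1.49 (adjusted p = 0.0182).

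Between the phenotypes BCL2L1 averaged 4.09 ± 0.60 in B dogs and 5.80 ± 1.04 in T dogs (SD, n = 17 each), and 9 of the 17 T dogs were TZL. The difference of -1.71 (SE 0.28, 95% interval -2.29 to -1.14) passed limma's test with an adjusted p of 8.42e-06, and with values under the minimum set to 4 it was -1.53. That call was kept under all 18 alternatives, equal weight per subtype among them. In order of the subtype means, TZL stood above PTCL, and the steps from PTCL down through LBT, DLBCL, BL and MZL each missed the test between neighbours (adjusted p 0.231 to 0.996). In limma LBT was called against none of DLBCL, MZL and BL (adjusted p 0.231, 0.158 and 0.478). BCL2L1 rests on 1 probe set. The other probe set paired with the gene stayed under the minimum in every dog, and within subtypes the pair correlated at 0.017 over 34 dogs.

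BCL2, the founding guardian, was lower in B than in T dogs. It was 5.66 and 6.48 in BL, 5.16 at the lowest, 6.57 at the median and 9.71 at the highest in DLBCL, and 7.95, 6.30, 7.99, 8.71 and 6.91 in MZL. LBT dogs had 8.48, 8.11, 7.67 and 7.42, PTCL dogs 7.51, 9.74, 6.98 and 7.44, and TZL dogs 7.89 to 9.66 with a median of 8.58. The NBNT dog was at 9.43. The B and T ranges overlapped, with 10 of 17 B dogs, both BL dogs among them, under the lowest T dog (PTCL replicate 3) and 1 of 17 T dogs above the highest B dog (DLBCL replicate 3).

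BCL2 averaged 6.90 ± 1.22 in B dogs and 8.38 ± 0.85 in T dogs (SD, n = 17 each), a difference of -1.48 (SE 0.35, 95% interval -2.19 to -0.77, limma adjusted p = 0.000772). In order of the means, TZL at 8.79 ± 0.61 (SD, n = 9) was followed by PTCL, LBT, MZL, DLBCL and BL, and no step between neighbours passed the test (adjusted p 0.357 or more). Among pairs of subtypes, BCL2 was lower in DLBCL than in TZL (-2.06, SE 0.44, adjusted p = 0.00033) and lower in BL than in TZL (-2.72, SE 0.75, adjusted p = 0.00867). Against TZL, MZL stood at -1.22 (adjusted p = 0.0897), LBT at -0.87 (adjusted p = 0.267) and PTCL at -0.87 (adjusted p = 0.357), none past the threshold.

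Several BCL2 calls changed without DLBCL replicate 3. This dog had the highest BCL2, BCL2A1, BCL2L1 and MCL1 of the 10 DLBCL dogs, at 9.71, 11.90, 5.24 and 11.20, and the lowest BID, at 7.67. Its summed T cell and B cell marker intensities, 6224 and 5378, each ranked 4 of 10 among DLBCL dogs, its macrophage genes summed to 7867, rank 2, and its proliferation genes to 1780, rank 9. Without this dog, BCL2 was called in DLBCL against PTCL (-1.52, adjusted p = 0.0194, against -1.19 and 0.138 with it) and in DLBCL against LBT (-1.52, adjusted p = 0.0132, against -1.19 and 0.108 with it). It was also called in MZL against TZL (adjusted p = 0.0376, against 0.0897 with the dog). That pair holds no DLBCL dog, and its difference stayed at -1.22 while the SE went from 0.54 to 0.44. The other probe set paired with BCL2 lay under the minimum in every dog and correlated at 0.10 with the one used, within subtypes.

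BCL2A1, a guardian induced by NF-kB in activated lymphocytes, had its lowest mean in LBT and its highest in TZL. BL dogs had 10.70 and 10.31, DLBCL dogs 10.06 to 11.90 with a median of 10.56, and MZL dogs 11.15, 11.22, 10.20, 10.99 and 10.67. LBT dogs had 8.93, 9.12, 9.09 and 10.75, and PTCL dogs 11.54, 9.36, 10.56 and 11.68. TZL dogs had 11.19 at the lowest, 11.71 at the median and 12.35 at the highest, and the NBNT dog 11.38. All TZL dogs lay above all LBT and BL dogs, and LBT replicate 4 stood above the other LBT dogs while still under every TZL dog.

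The LBT minus TZL difference of BCL2A1 was -2.34 (SE 0.36, 95% interval -3.07 to -1.61, limma adjusted p = 1.13e-05), a 5.07-fold lower level in LBT. Its second probe set, which correlated with the first at 0.94 within subtypes, gave -2.12 (adjusted p = 6.3e-05). The B cell sum had a lower median in LBT too, 133 against 1037 in TZL dogs, with overlapping ranges. Of 6 tested B cell genes, 3 were called lower and 0 higher in LBT, beside 30.1% of all genes called in either direction. The called macrophage genes went both ways, with 1 of 9 higher and 1 lower in LBT. The macrophage sum had a median of 2968 in LBT and 5826 in TZL dogs, and every LBT sum lay inside the TZL range. The part of B cells and macrophages in the BCL2A1 difference was not tested. BCL2A1 was higher in DLBCL than in LBT (1.20, SE 0.35, adjusted p = 0.00876) and higher in MZL than in LBT (1.37, SE 0.40, adjusted p = 0.0104). Among Golden Retrievers alone the DLBCL difference was 0.82 and missed the threshold (adjusted p = 0.0738).

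BCL2A1 was also lower in MZL than in TZL (-0.97, SE 0.33, adjusted p = 0.0285), but this call was lost in several settings. It missed the threshold without the set of 6 arrays (-0.92, adjusted p = 0.0894), without MZL replicate 3 (-0.81, adjusted p = 0.0965), without MZL replicate 5 (-0.93, adjusted p = 0.0636), with sex, age and breed as covariates (-0.94, adjusted p = 0.073), with the mean of its probe sets (-0.81, adjusted p = 0.0629) and with the second probe set (-0.66, adjusted p = 0.158). PTCL minus TZL was -1.03 (SE 0.36, adjusted p = 0.0521), just outside the threshold, and it passed without PTCL replicate 4 (-1.33, adjusted p = 0.0185). LBT minus PTCL was -1.31 (SE 0.42, adjusted p = 0.147), and it passed without LBT replicate 4 (-1.74, adjusted p = 0.0256) or without PTCL replicate 2 (-1.79, adjusted p = 0.014). Between the phenotypes BCL2A1 averaged 10.70 ± 0.48 in B and 11.02 ± 1.18 in T dogs (SD, n = 17 each), with T dogs at both ends of the scale (difference -0.32, 95% interval -0.93 to 0.29, adjusted p = 0.4).

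**Figure D2:**
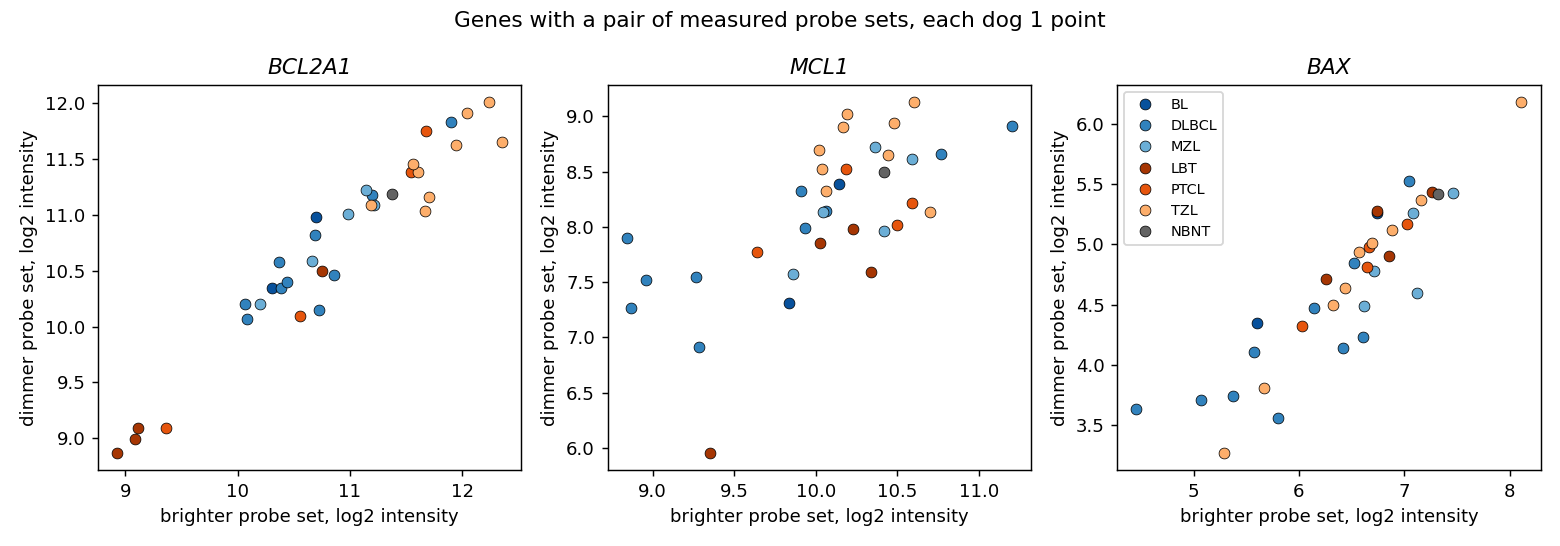
Log2 intensities of the brighter probe set (horizontal axes) and the dimmer one (vertical axes) of BCL2A1, MCL1 and BAX, each point 1 dog, coloured by subtype. The BCL2A1 pair and the BAX pair correlated at 0.94 and 0.89 within subtypes, and the MCL1 pair at 0.69.

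MCL1, a short-lived guardian that lymphocytes depend on, was called by limma in 1 of 15 pairs of subtypes, on its brighter probe set. BL dogs had 10.14 and 9.84, DLBCL dogs 8.84 to 11.20 with a median of 9.59, and MZL dogs 10.37, 10.59, 9.86, 10.42 and 10.04. LBT dogs had 10.03, 9.35, 10.34 and 10.23, and PTCL dogs 10.50, 10.19, 9.64 and 10.59. TZL dogs lay between 10.02 and 10.70 with a median of 10.19, and the NBNT dog at 10.42. The DLBCL dogs spanned the full range of the series, with the lowest and the highest value among them.

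B minus T was -0.31 for MCL1 (SE 0.19, 95% interval -0.68 to 0.07, adjusted p = 0.176). The pair that passed was DLBCL against TZL, at -0.59 (SE 0.24, adjusted p = 0.0466). That call was lost under 5 of 18 alternatives and on leaving out any of 17 of the 34 dogs, with an adjusted p of 0.144 without the set of 6 arrays (-0.53) and 0.0977 at most with 1 dog left out. Some of these dogs lie outside DLBCL and TZL. Leaving out such a dog kept the difference at -0.59, and only its spread or the adjustment moved. The second MCL1 probe set gave another picture for LBT. On it, LBT averaged 7.35 ± 0.94 (SD, n = 4) and TZL 8.70 ± 0.33 (SD, n = 9), a difference of -1.36 (adjusted p = 0.00267), while the brighter probe set gave -0.32 (adjusted p = 0.487), so the level of MCL1 in LBT is uncertain. On the second probe set LBT replicate 2 was at 5.96 and the other LBT dogs at 7.59 to 7.98, and without that dog the difference was -0.89 (adjusted p = 0.0398).

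The effector BAX, which forms pores in the mitochondrial outer membrane, was called by limma in 0 of 15 pairs of subtypes, with 3 at an unadjusted p under 0.05. BL dogs had 5.60 and 6.74, DLBCL dogs 4.46 at the lowest, 5.97 at the median and 7.05 at the highest, and MZL dogs 7.08, 6.71, 7.47, 7.12 and 6.62. LBT dogs had 6.25, 7.27, 6.74 and 6.86, and PTCL dogs 7.03, 6.65, 6.03 and 6.67. TZL dogs had 5.29 to 8.11 with a median of 6.57, and the NBNT dog 7.32. DLBCL dogs were thus mostly under the MZL dogs, although the ranges met.

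For DLBCL minus MZL the BAX difference was -1.10 (SE 0.37, 95% interval -1.85 to -0.35), with an unadjusted p of 0.00538 and a limma adjusted p of 0.188. The second BAX probe set gave -0.71 (adjusted p = 0.391). DLBCL minus LBT was -0.88 (adjusted p = 0.0874) and passed without DLBCL replicate 6, the dog with 2 arrays (-1.01, adjusted p = 0.0461). DLBCL minus TZL was -0.67 (adjusted p = 0.0737). It passed without DLBCL replicate 6 (-0.80, adjusted p = 0.0329), without TZL replicate 1 (-0.78, adjusted p = 0.0417) or without TZL replicate 2 (-0.83, adjusted p = 0.0247). Both of these TZL dogs belong to the set of 6 arrays. B minus T was -0.37 (95% interval -0.87 to 0.13, adjusted p = 0.226).

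BAK1, the other effector, was dim and scattered. BL dogs had 3.74 and 3.92, DLBCL dogs 3.11 to 5.11 with a median of 4.06, and MZL dogs 4.15, 6.59, 4.59, 4.62 and 3.94. LBT dogs had 4.45, 7.04, 4.59 and 5.87, and PTCL dogs 5.25, 3.74, 5.35 and 4.65. TZL dogs had 3.07 to 6.43 with a median of 4.82, and the NBNT dog 4.69. In all, 7 of 17 B dogs and 3 of 17 T dogs lay under the minimum, both BL dogs among them. The other probe set paired with BAK1 was under the minimum in every dog.

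BAK1 averaged 4.30 ± 0.82 in B dogs and 4.99 ± 1.06 in T dogs (SD, n = 17 each), a difference of -0.69 that missed the threshold (SE 0.32, limma adjusted p = 0.0704). It passed with the set of 6 arrays as a block (-0.82, adjusted p = 0.0195) and without those arrays (-0.80, adjusted p = 0.0409). With the 3' minus 5' control differences as covariates it was -0.16 (adjusted p = 0.64). DLBCL minus LBT was -1.34 (SE 0.55, adjusted p = 0.0566), and -0.18 (adjusted p = 0.785) with those covariates. The actin 3' minus 5' control difference had a median of 0.92 in DLBCL and -0.76 in LBT dogs.

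Among the BH3-only proteins, BID had its lowest mean in TZL. BID is cut by caspase-8 and carries the signal of death receptors to the mitochondria. BL dogs had 8.55 and 8.59, DLBCL dogs 7.67 to 8.86 with a median of 8.34, and MZL dogs 7.83, 8.30, 7.95, 8.09 and 8.45. LBT dogs lay close together at 8.73, 8.43, 8.57 and 8.53, and PTCL dogs spread over 7.91, 7.13, 8.70 and 8.13. TZL dogs had 6.35 at the lowest, 7.49 at the median and 8.02 at the highest, and the NBNT dog 7.44. Every LBT and BL dog lay above every TZL dog, while PTCL, MZL and DLBCL overlapped with TZL.

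BID was higher in LBT than in TZL by 1.22 (SE 0.25, 95% interval 0.71 to 1.73, limma adjusted p = 0.000411), a 2.34-fold difference. It was higher in MZL than in TZL by 0.79 (SE 0.23, adjusted p = 0.0115), and it was also higher in DLBCL than in TZL (95% interval 0.61 to 1.39, adjusted p = 8.87e-05). PTCL minus TZL was 0.63 (SE 0.25, adjusted p = 0.0928), and 0.91 (adjusted p = 0.0244) without PTCL replicate 2. Down the order of the means, from BL through LBT, DLBCL, MZL and PTCL to TZL, no step between neighbours passed the test (adjusted p 0.0928 or more).

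Between the phenotypes BID averaged 8.30 ± 0.35 in B dogs and 7.77 ± 0.68 in T dogs (SD, n = 17 each), a difference of 0.53 (SE 0.18, adjusted p = 0.0195). That call was lost when each subtype had equal weight (0.39, adjusted p = 0.0586) and with the 3' minus 5' control differences as covariates (0.35, adjusted p = 0.221). TZL holds 9 of the 17 T dogs. Proliferation genes, like BID, had their lowest median in TZL among the subtypes, although PTCL dogs had a higher median sum of them than DLBCL or MZL dogs and a lower mean of BID. The summed intensity of 5 proliferation genes was 3083 to 3991 in BL, 1528 to 5445 in DLBCL, 733 to 1812 in MZL, 2537 to 3737 in LBT, 1571 to 7136 in PTCL and 214 to 1059 in TZL dogs. The part of proliferation in the BID values was not tested. In tissue, fewer cells of a type and less RNA per cell cannot be told apart, for BID as for every member.

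BCL2L11, which codes for the BH3-only protein BIM, was under the minimum in all 34 dogs of the comparisons, at 1.59 to 2.54, and in the NBNT dog at 1.82. Its single probe set gave no measured level and the gene entered no test.

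**Figure D3:**
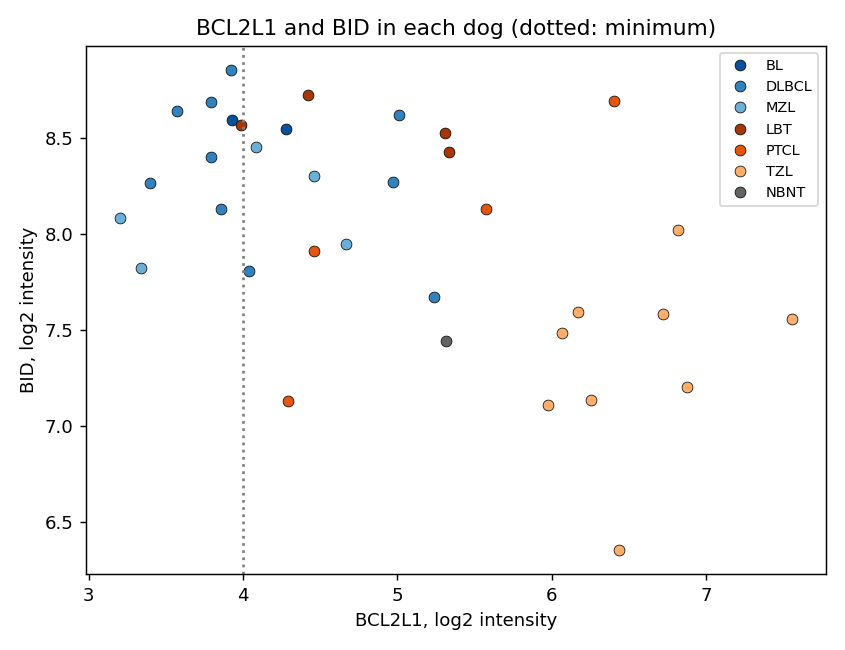
Log2 intensity of BCL2L1 (horizontal axis) and of BID (vertical axis) in each of the 35 dogs, coloured by subtype, with the minimum for BCL2L1 dotted. The TZL dogs lie at 5.98 or more for BCL2L1 and at 8.02 or less for BID, and PTCL replicate 3, at 6.40 and 8.70, lies above them in BID.

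In B against T, 3 of 7 tested members were called, a share of 42.9%, beside 46.5% of all genes tested, so the family was not called more often than other genes. BCL2 and BCL2L1 were lower in B, where 22.3% of all genes were called lower, and BID was higher, where 24.2% of all genes were called higher. Over any difference among the 6 subtypes, limma's F test called 4 of 7, namely BCL2 (adjusted p = 0.00287), BCL2A1 (0.000106), BCL2L1 (7.39e-07) and BID (0.000278), against 56.8% of all genes. Without the set of 6 arrays BAX was called as well (adjusted p = 0.033, against 0.0963 with it), as it was without DLBCL replicate 6 (adjusted p = 0.0431), and MCL1 was called without DLBCL replicate 3 (adjusted p = 0.0408). With the 3' minus 5' control differences as covariates the F test called 3 of 7, against 50.7% of all genes. The 4 calls were thus not all kept under that setting. The median B minus T difference over the 7 members was -0.37, beside 0.03 over all genes. Regardless of sign, the median difference over all genes was 0.45.

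**Figure D4:**
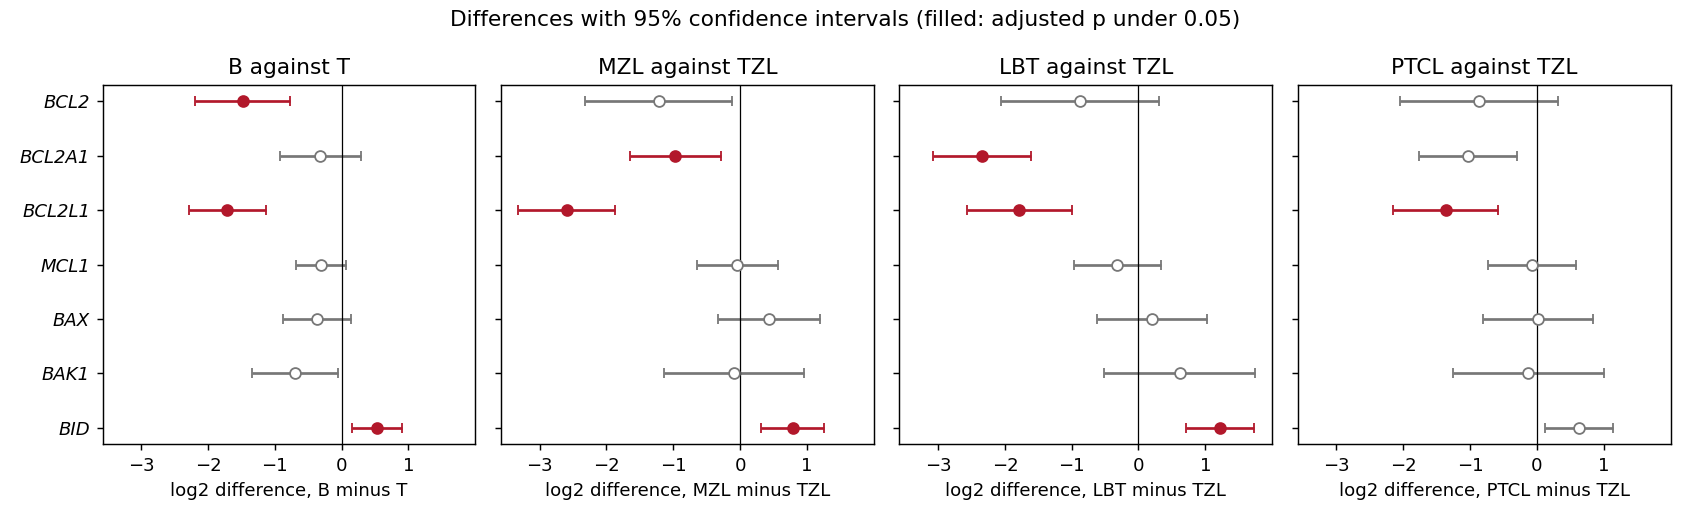
Log2 differences (horizontal axes, first-named group minus second) of the 7 tested members with 95% confidence intervals, for B against T, MZL against TZL, LBT against TZL and PTCL against TZL. Filled points passed an adjusted p of 0.05 in limma. BCL2L1 is filled in all 4 panels, from -1.36 for PTCL to -2.59 for MZL.

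Against TZL, BCL2L1 was lower in each of the 5 other subtypes. In LBT against TZL, 3 of 7 members were called, against 30.1% of all genes, with BCL2A1 and BCL2L1 lower and BID higher in LBT. In MZL against TZL, both low-grade, the same 3 members were called in the same directions, against 27.5% of all genes. In PTCL against TZL, BCL2L1 alone was called, against 13.7% of all genes. In DLBCL against TZL, 5 of 7 members were called, against 46.9% of all genes, with BCL2, BCL2A1 (-1.14, adjusted p = 0.00102), BCL2L1 (-2.39, adjusted p = 1.54e-07) and MCL1 lower and BID higher in DLBCL. With the 3' minus 5' control differences as covariates the BCL2A1 call was lost (-0.72, adjusted p = 0.0814). Because these comparisons share the TZL dogs, they do not repeat each other independently. In BL against TZL, 4 of 7 members were called, against 25.3% of all genes, with BCL2, BCL2A1 (-1.31, adjusted p = 0.0372) and BCL2L1 (-2.44, adjusted p = 0.000783) lower and BID (1.23, adjusted p = 0.00615) higher in BL. Only 2 dogs stand behind BL. Without BL replicate 1 or without BL replicate 2, with the lone BL dog taken to vary like the other groups, the calls of BCL2 (adjusted p 0.142 and 0.0584) and BID (0.064 and 0.0927) were lost, as was that of BCL2A1 (at most 0.284). BCL2A1 also lost its call without TZL replicate 1, without TZL replicate 6, without the set of 6 arrays (-1.26, adjusted p = 0.0813), with the 3' minus 5' covariates (-0.85, adjusted p = 0.252), with sex, age and breed as covariates (-1.17, adjusted p = 0.103), with the mean of its probe sets (-1.06, adjusted p = 0.0855) and with no filter (adjusted p = 0.06).

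Between the other subtypes few members were called. In DLBCL against LBT only BCL2A1 was called, higher in DLBCL, against 33.7% of all genes. DLBCL against PTCL called 0 of 7 in limma, with 2 at an unadjusted p under 0.05, against 20.9% of all genes, and BCL2L1 came closest at -1.02 (SE 0.38, adjusted p = 0.0533). LBT against PTCL called 0 of 7, with 1 at an unadjusted p under 0.05, against 0.68% of all genes. BL against DLBCL called 0 of 7, with 0 at an unadjusted p under 0.05, against 0.0267% of all genes. In the remaining pairs, MZL against LBT called BCL2A1 (28.7% of all genes) and MZL against PTCL called BCL2L1, lower in MZL (-1.23, adjusted p = 0.0488, 15.5% of all genes). The BCL2L1 call was lost under 15 of 18 alternatives and on leaving out any of 22 of the 34 dogs, and the difference was -0.82 (adjusted p = 0.233) without the set of 6 arrays and -1.10 (adjusted p = 0.104) without PTCL replicate 4. Most of these dogs lie outside MZL and PTCL. Leaving out such a dog kept the difference at -1.23, and only its spread or the adjustment moved. MZL against BL (0.173% of all genes), BL against PTCL (6.29%) and BL against LBT (13.8%) called 0 of 7 members in limma, with 0, 1 and 2 at an unadjusted p under 0.05 in that order.

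The step from low to higher grade was asked within each lineage, where grade cannot be told apart from subtype. DLBCL against MZL called 0 of 7 members in limma, with BAX alone at an unadjusted p under 0.05, and 0.0% of all genes, although 977 genes had an unadjusted p under 0.05. The difference between the lineages' steps, PTCL minus TZL less DLBCL minus MZL, called 0 of 7 members, with 2 at an unadjusted p under 0.05, and 1.96% of all genes. For BCL2L1 it was -1.57 (SE 0.52, 95% interval -2.64 to -0.51, adjusted p = 0.123), made up of PTCL minus TZL at -1.36 less DLBCL minus MZL at 0.21. For BAX it was 1.12 (SE 0.55, adjusted p = 0.35). Without the intermediate-grade PTCL dog, the difference between the steps called 0 of 7 members and 3.75% of all genes.

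Within subtypes the members were compared pair by pair. Of 21 pairs among the 7 members, over 34 dogs as deviations from the subtype means, the strongest relation was between BCL2 and BID, with Pearson's r -0.49 (permutation p = 0.00866, adjusted over 21 pairs 0.182) and Spearman's rho -0.45 (permutation p = 0.0174, adjusted 0.365). Without the 2 dogs farthest from the median of BCL2, r was -0.27. Dropping these dogs narrows the range of BCL2, which can itself shrink r, so nothing is concluded from the fall. No pair passed after adjustment, which does not show that the members vary independently.

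The genes most like each member were found among the 7499 other tested genes by the correlation of these deviations over the same 34 dogs, as a description. BID was most like LOC486607 (r 0.74), PRC1 (0.72) and TTK (0.72), and PRC1 and TTK serve the mitotic spindle. BCL2 was most like NIBAN1 (0.74), TGFBR2 (0.73) and AOX2 (0.72). BCL2A1 was most like GSTK1 (0.73), the costimulatory ligand CD80 (0.73) and EVI2B (0.70), and BCL2L1 was most like SH3BGRL3, RAC2 and PDZD11 (0.74 each). MCL1 was most like ETAA1 (0.81), LOC488248 (0.79) and TUT7 (0.78), BAX like MON1A, ZNHIT1 (0.63 each) and ARFRP1 (0.62), and BAK1 like COPZ1 (0.80), RHOF and TMEM259 (0.78 each). The part of RNA quality in these values was not tested.

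The wider family and its neighbours in the pathway were read from 6 lists. Of 5 further BCL2 relatives tested, 2 were higher and 0 lower in B than in T, where 46.5% of all genes were called and 24.2% called higher. BCL2L14 averaged 6.64 ± 0.96 in B dogs and 3.22 ± 1.28 in T dogs (SD, n = 17 each, adjusted p = 6.04e-09), where 12 of 17 T dogs lay under the minimum. BCL2L13, a mitochondrial relative, was 0.54 higher in B (adjusted p = 0.0485). In LBT against TZL, with 30.1% of all genes called, 2 of the 5 were higher, BCL2L13 by 1.29 (adjusted p = 0.0015) and the mitophagy receptor BNIP3L by 1.16 (adjusted p = 0.00355), and BCL2L14 was lower with both group means under the minimum. In PTCL against TZL, with 13.7% of all genes called, BCL2L13 alone passed, 1.09 higher (adjusted p = 0.0133), and in MZL against TZL, with 27.5% called, BCL2L14, BNIP3L and BCL2L13 were all higher.

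Death receptors feed BID through caspase-8. Of 8 genes tested from their list, 4 were lower and 0 higher in LBT than in TZL, 2 lower and 0 higher in PTCL, and 3 lower and 0 higher in MZL, beside 30.1%, 13.7% and 27.5% of all genes called in those comparisons. FASLG, the ligand of FAS made by cytotoxic T cells, was under the minimum in all 4 LBT dogs and averaged 7.08 ± 0.86 in TZL dogs (SD, n = 9), at least 8.46-fold lower in LBT (adjusted p = 5.65e-07). In PTCL dogs it averaged 3.66 ± 1.15 (SD, n = 4), with 3 of 4 under the minimum, and was lower than in TZL (adjusted p = 9.34e-05). It was also lower in MZL than in TZL (-2.47, SE 0.51, adjusted p = 0.00055). In B against T, with 46.5% of all genes called, 1 was higher, the adaptor TRADD by 0.60 (adjusted p = 0.00503), and 2 were lower, among them TNFSF10 (TRAIL) at -0.80 (adjusted p = 0.022) and TNFRSF1A, which was under the minimum in all 17 B dogs and 12 of 17 T dogs.

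Of 9 caspase and apoptosome genes, 2 were higher and 0 lower in B than in T, beside 46.5% of all genes called. CASP8, the caspase that cuts BID, was higher by 0.89 (SE 0.26, adjusted p = 0.00639) and the nuclease inhibitor DFFA by 0.79 (adjusted p = 0.00503). In LBT against TZL (30.1% of all genes called), 3 were higher and 1 lower, the lower one CASP10 (adjusted p = 0.0017), and in PTCL against TZL (13.7%) 2 were higher and 1 lower, again CASP10 (adjusted p = 0.00376). CASP10 averaged 3.39 ± 0.53 in LBT (SD, n = 4), 3.37 ± 0.65 in PTCL (SD, n = 4) and 4.68 ± 0.34 in TZL dogs (SD, n = 9), with 3 of 4 LBT and 3 of 4 PTCL dogs under the minimum, so the size of its difference is not given. In MZL against TZL (27.5%), 1 was higher, DFFA by 1.19 (adjusted p = 0.00562).

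Of 8 inhibitors of apoptosis and their antagonists, 2 were higher and 4 lower in LBT than in TZL, where 30.1% of all genes were called. DIABLO (SMAC), which mitochondria release to block those inhibitors, was 1.13 higher (SE 0.21, adjusted p = 0.000142) and BIRC5 (survivin), also a mitotic gene, 2.39 higher (SE 0.46, adjusted p = 0.000206), while XAF1 was lower (-3.49, SE 0.86, adjusted p = 0.00258), with 2 of 4 LBT dogs under the minimum. In PTCL against TZL (13.7% of all genes called) the same 3 genes were called, DIABLO at 1.01 (adjusted p = 0.00138), BIRC5 at 2.06 (adjusted p = 0.00274) and XAF1 at -2.88 (adjusted p = 0.0227). In MZL against TZL (27.5%) limma called 0 of the 8, with 1 at an unadjusted p under 0.05. In B against T (46.5%), BIRC3 alone was called, 0.89 higher (adjusted p = 0.0296).

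Of 4 tested genes of the p53 axis, SESN1 was 2.42 higher (adjusted p = 4.35e-06) and the cell cycle inhibitor CDKN1A lower (-1.55, adjusted p = 0.00577) in B than in T, beside 46.5% of all genes called. In LBT against TZL (30.1%), 3 of the 4 were lower, among them MDM2 at -0.79 (adjusted p = 0.000829). Of 12 regulators of the members, 2 were higher and 4 lower in B than in T, a share near the 46.5% of all genes called. USP9X, a deubiquitinase that stabilises MCL1 in human cells, was under the minimum in all 17 B dogs and averaged 6.49 ± 2.33 in T dogs (SD, n = 17), at least 5.63-fold lower in B (adjusted p = 1.23e-06). FOXO3, a transcription factor that induces BIM, averaged 4.73 ± 0.45 in B dogs and 3.68 ± 0.51 in T dogs (SD, n = 17 each, adjusted p = 3.82e-06), where 10 of 17 T dogs lay under the minimum, so the size of its difference is not given. In DLBCL against MZL limma called 0 of the 46 tested genes of these 6 lists, with 5 at an unadjusted p under 0.05.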

How the data were processed

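The authors deposited linear intensities for every probe set, made with GCRMA, per the submitters' processing notes (version not given in sources used here). Intensities were floored at 1 and taken to log2. The probe set with the highest mean represented each gene, and genes with log2 of at least 4 in at least 4 of 34 dogs were tested. R 4.3.3 with limma 3.58.1 (lmFit and eBayes) gave two-sided p-values, adjusted by Benjamini-Hochberg over 7500 genes and called under 0.05. B and T were compared with 2 means, and subtypes with 6 means sharing 1 spread. The steps were tested on simulated data. Alternatives covered the filter, scaling, probe sets, covariates, the array set and leaving out dogs. The text names all members, up to 3 called genes with the smallest p per list, and the 3 genes most like each member. Correlations between members used 100000 resamples within subtypes, run with Python 3.11.15 and scipy 1.17.1. The members and lists were chosen with earlier results of these data known.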

Additional observations from a re-analysis of the deposited data

Results flagged for a closer look

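Among 35 sets of 1 member in 1 subtype examined for a dog far from the others, of which chance marks about 1 in 20, 2 were marked. LBT replicate 4 had a BCL2A1 log2 intensity of 10.75, and the next highest LBT dog 9.12. It also had the highest B cell marker sum (1956) and the highest macrophage marker sum (4462) of the 4 LBT dogs, and their part in its BCL2A1 was not tested. MZL replicate 2 had a BAK1 log2 intensity of 6.59, and the next highest MZL dog 4.62.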

How the results depend on the processing

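Of 22 member differences called, none changed sign under 18 alternatives or when any of 34 dogs was left out, 14 stayed past the threshold under all 18 alternatives, 15 whichever dog was left out, and 12 under both. Of these, 11 lie in DLBCL against TZL, BL against TZL, MZL against LBT and MZL against PTCL, whose alternatives were chosen after seeing the data, and 5 of those 11 stayed under both. Calls were lost for BID in B against T, BCL2L1 in PTCL against TZL and MZL against PTCL, BCL2A1 in MZL against TZL, DLBCL against LBT, DLBCL against TZL (-0.72, adjusted p = 0.0814, with 3' minus 5' covariates) and BL against TZL, MCL1 in DLBCL against TZL, and BCL2 and BID in BL against TZL. Averaging a gene's probe sets, which brings in the dim ones, shrank BCL2 and BCL2L1 by over 1.5 times with the calls kept in B against T (BCL2 -0.72, BCL2L1 -0.95) and against TZL (BCL2 by 2.06 times in DLBCL and to -1.37 in BL, and BCL2L1 to -0.84 in PTCL, -0.95 in LBT, -1.47 in MZL, -1.35 in DLBCL and -1.25 in BL). The setting with Golden Retrievers only holds 1 PTCL dog and 1 BL dog, which are taken to vary like the other groups, so its values for those subtypes rest on 1 dog each, among them -2.23 for BCL2L1 in PTCL against TZL. Calls gained without moving a count by over 1.5 times were BAK1 in B against T (values under the minimum set to 4, sex, age and breed as covariates, the array set as a block or left out), MCL1 in LBT against TZL with the mean of probe sets, BCL2 in MZL against TZL with array weights or only the compared groups, and, over the 6 subtypes, MCL1 with array weights and BAX without the array set. Counts of called members moved by more as follows, and the cause was not tested. B against T called 5 with array weights, BCL2A1 and MCL1 joining, with 54.3% of all genes called under that setting. PTCL against TZL called 2 with the filter at log2 6, median centring, quantile normalization, the trend and robust model, both arrays of the repeated case, sex, age and breed as covariates, Golden Retrievers only, the intermediate-grade dog left out, or 3' minus 5' covariates, BCL2A1 joining each time. DLBCL against PTCL called 1 with the filter at log2 6, both repeated arrays, Golden Retrievers only or the array set as a block. DLBCL against LBT called 2 with the mean of probe sets, the first repeated array or only the compared groups, and 0 with Golden Retrievers only. The grade steps called 1 with Golden Retrievers only and with 3' minus 5' covariates. With dogs left out in turn, the counts ran from 3 to 4 for B against T, 1 to 2 for PTCL against TZL, 0 to 1 for LBT against PTCL, 2 to 4 for MZL against TZL, 0 to 2 for DLBCL against PTCL, 1 to 3 for DLBCL against LBT and 4 to 5 for the 6 subtypes, and stayed at 3 for LBT against TZL and 0 for DLBCL against MZL, BL against DLBCL and the grade steps. No paired analysis was possible because each dog belongs to 1 group and the replicate numbers only name the dogs. Dim probe sets limit BCL2L1 and BAK1 in B dogs, where values near the minimum carry little order.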
